A study of Homo sapiens with 12 samples.

Results

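The genes described here are 10 inflammatory chemokines and interleukins: CCL2, CCL5, CXCL1, CXCL2, CXCL3, CXCL8, IL6, IL1A, IL1B and LIF. They are a family of secreted signals listed by name, and each was read from the probe set whose only gene symbol was its own. All 10 had exactly 1 such probe set, so 10 of the 18417 genes measured on the arrays are described. RNA was measured on Affymetrix Human Gene 1.0 ST arrays in the 1833 subline of MDA-MB-231, a human breast cancer line of basal type, to find genes regulated by HMGA2, Tet1 and HOXA9. HMGA2 is a chromatin protein, TET1 an oxidase of 5-methylcytosine and HOXA9 a homeobox transcription factor.

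The 4 groups were control cells (3 arrays), cells carrying an shRNA against HMGA2 (shHMGA2, 3 arrays), cells with inducible Flag-Tet1 (Tet1, 2 arrays) and cells with inducible HOXA9 (HOXA9, 2 arrays). The shRNA was in the lentiviral vector pLKO.1, and these cells were kept in puromycin. The inducible cells carried the Tet1 or HOXA9 construct in pLVX-TRE3G together with the Tet-On regulator from pCMV-Tet3G, were selected in puromycin and G418, and grew in serum approved for Tet systems. The sources used here do not say whether control cells had received any vector or what induced the constructs. The titles and cell line fields name subline 1833 for every sample, but the source names of Tet1 and HOXA9 give 1834. The replicates are called biological, and p-values measure the spread between these samples. A further column each of Tet1 and HOXA9, labelled replicate 3, equalled the mean of replicates 1 and 2 in all 33297 probe sets and was left out.

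Chemokines are small secreted proteins that draw cells along a gradient through receptors of the G-protein-coupled family. CCL2 draws monocytes, CCL5 draws T cells and monocytes, and the CXC chemokines CXCL1, CXCL2, CXCL3 and CXCL8 draw neutrophils through CXCR1 and CXCR2. Interleukin-1 (IL1A and IL1B) acts through IL1R1 and IL1RAP, MYD88 and the IRAK kinases to free NF-kB, a transcription factor that in turn switches on many chemokine genes and IL6. IL6 and LIF signal through receptors that share the subunit gp130 (IL6ST) and through the kinases JAK1 and JAK2 to STAT3. MDA-MB-231 cells are known for NF-kB activity in culture and for secreting CXCL8, IL6 and LIF.

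The arrays fell into 2 sets, and this touches every comparison with Tet1 or HOXA9. Array medians were 7.21 to 7.28 on the log2 scale in control and shHMGA2 and 7.66 to 7.71 in Tet1 and HOXA9, and the lower quartiles were 5.75 to 5.76 and 6.22 to 6.25. Correlations between arrays were 0.986 to 0.998 and 0.993 to 0.997 within the sets and 0.945 to 0.966 between them. Each group lay within 1 set. Array set, subline number and construct therefore cannot be told apart in any comparison of Tet1 or HOXA9 with control. The differences depended on level. Genes with a control mean of 6 to 7 had a median change of 0.63 in Tet1 and 0.59 in HOXA9, those of 7 to 8 had 0.47 and 0.43, and those of 11 to 12 had -0.29 and -0.24. In shHMGA2 these medians lay between -0.05 and -0.03.

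HMGA2 was read only by a probe set it shares with ELAC2, which was lower in shHMGA2 (log2 fold change -0.75, SE 0.12, limma adjusted p = 0.00315 over all probe sets) and higher in Tet1 and HOXA9 (0.86 and 0.85). TET1 was 2.41 higher in shHMGA2 (adjusted p = 1.3e-07), 0.50 higher in the arrays labelled Tet1 and 0.73 higher in those labelled HOXA9. Genes of its control level had medians of 0.63 and 0.59 there, and after 1 quantile normalization TET1 was at -0.06 and 0.20 against control and with equal array medians at 0.04 and 0.28, none of them called. The Tet1 label is therefore not borne out by the TET1 probe set on these arrays. Whether that probe set can read the Flag-Tet1 construct was not checked, so its values cannot decide on the label. Tet1 and HOXA9 below name the arrays by their labels. No probe set names HOXA9 alone. Of 9 measured traits of the kidney line HEK293, 5 were higher in shHMGA2 and 0 lower, beside 13.6% and 12.6% of all genes. In Tet1 6 were higher and 1 lower and in HOXA9 5 and 2, beside 53.9% and 54% of all genes higher. After 1 quantile normalization 4 were higher and 0 lower in shHMGA2, 3 and 3 in Tet1 and 2 and 3 in HOXA9. Of all 18417 genes 2366 were then higher and 2614 lower in shHMGA2, 6001 and 6135 in Tet1 and 5478 and 6267 in HOXA9. The summed level of the 9 traits was 9.96 to 10.08 on the log2 scale in control and 11.36 to 11.74 in shHMGA2. It was 10.37 to 10.41 in Tet1 and 10.26 to 10.40 in HOXA9, and no value of the table is 0. CDKN2A and MTAP, neighbouring genes that are deleted in the parental MDA-MB-231 line, were 2.48 and 1.72 higher in shHMGA2. Whether RNA of another line had a part in the shHMGA2 results below was not tested. Genes that mark basal breast lines were bright as a list, with a list mean of 10.81 to 11.71 over all arrays. SPARC, which is in the list, was dim in control and shHMGA2 (6.04 and 5.91) and at 8.25 in Tet1 and 7.94 in HOXA9.

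Compared with control, shHMGA2 cells had less CCL2, IL6, CXCL8 and LIF RNA and more IL1A and IL1B RNA, while CCL5, CXCL1, CXCL2 and CXCL3 did not pass the test. Thus 2 of the 10 genes were higher and 4 lower, against 26.2% of all genes called in either direction (13.6% higher and 12.6% lower) by limma at an adjusted p under 0.05. In Tet1, CXCL8, CXCL3, IL1B, CXCL2, CXCL1 and CCL5 were called higher and CCL2 and IL6 lower. In HOXA9, CXCL8, CXCL3, IL1B, CXCL2 and CCL5 were called higher and CCL2 and IL6 lower. The counts of 8 and 7 called of 10 stand beside 77.1% and 75.7% of all genes called in these comparisons (53.9% and 54% higher, 23.2% and 21.6% lower), so they are near the background of their arrays. The median of the 10 changes was -0.08 in shHMGA2, 0.41 in Tet1 and 0.28 in HOXA9, beside -0.03, 0.25 and 0.24 over all genes. All 3 comparisons use the same control arrays, so their values are given side by side and are not independent of each other.

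**Figure D1:**
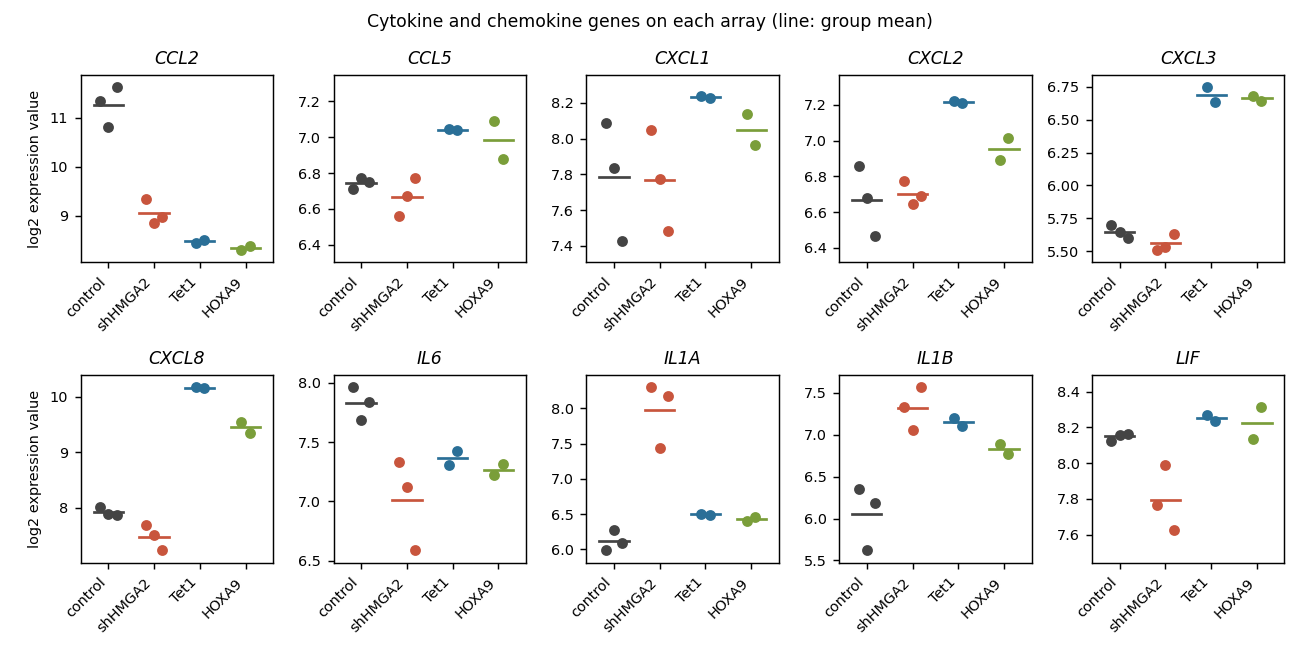
Log2 expression value of each of the 10 genes (panels, each with its own vertical axis) on each array, by group, with points for arrays and lines for group means. CCL2 is at 10.81 to 11.63 in control and at 8.30 to 9.33 in the other groups, and CXCL8 is at 9.35 to 10.17 in Tet1 and HOXA9 and at 7.24 to 8.02 in control and shHMGA2.

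CCL2, the monocyte chemokine, was read by probe set 8006433. Its log2 values were 11.34, 10.81 and 11.63 in control, 9.33, 8.84 and 8.97 in shHMGA2, 8.45 and 8.49 in Tet1, and 8.30 and 8.38 in HOXA9. Every control array was above every other array, and no 2 groups overlapped in the order control, shHMGA2, Tet1 and HOXA9. The control mean of 11.26 ± 0.42 (SD, n = 3) was higher than that of 94.07% of genes, and the shHMGA2 mean was 9.05 ± 0.25 (SD, n = 3). This was a 4.63-fold lower level in shHMGA2 (limma log2 fold change -2.21 with 95% confidence limits of -2.59 to -1.84, SE 0.17, adjusted p = 3.81e-06). Fewer expressing cells and less RNA per cell cannot be told apart in RNA from whole cultures, here and below. CCL2 RNA was 6.92-fold lower in Tet1 (log2 fold change -2.79, SE 0.19, adjusted p = 1.77e-07) and 7.58-fold lower in HOXA9 (-2.92, SE 0.19, adjusted p = 1.53e-07). These falls were larger than the median change of -0.29 and -0.24 among genes as bright as CCL2 in control. Over the other 2 scalings of the arrays CCL2 lay between -3.38 and -2.89. The neighbours Tet1 and HOXA9 did not differ by the test (difference 0.13, 95% confidence interval -0.33 to 0.59, adjusted p = 0.899).

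CCL5, the other CC chemokine of the set (probe set 8014316), showed no such fall. It was at 6.71, 6.77 and 6.75 in control, 6.56, 6.67 and 6.77 in shHMGA2, 7.04 and 7.04 in Tet1, and 7.09 and 6.88 in HOXA9. Control and shHMGA2 overlapped, and the difference of -0.08 did not pass (limma 95% limits -0.23 to 0.08, adjusted p = 0.483). Its level was 0.30 above control in Tet1 (adjusted p = 0.00428) and 0.24 above it in HOXA9 (adjusted p = 0.0148), but genes of its control level had a median change of 0.63 and 0.59 there. With 1 quantile normalization over all arrays the calls turned to lower (-0.27 and -0.32), and with equal array medians likewise (-0.17 and -0.21). CCL5 therefore had no direction in Tet1 or HOXA9 that held over the scalings, and the HOXA9 call was lost without HOXA9 replicate 1 (0.14, adjusted p = 0.185).

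CXCL1, CXCL2, CXCL3 and CXCL8 encode neutrophil chemokines whose genes lie together on chromosome 4. The promoters are shown because CXCL1, CXCL2 and CXCL3 are near-identical copies and CXCL8 is a more distant relative, and because their RNA levels differed in how they changed. Each sequence below is the 140 bases before the RefSeq gene start (GRCh38.p14), 5′ to 3′ on the gene's strand, with capitals marking matches to the NF-kB core GGNNTTTCC and, in CXCL8, to the AP-1 motif TGANTCA.
CXCL1 (chr4:73869253-73869392, plus strand): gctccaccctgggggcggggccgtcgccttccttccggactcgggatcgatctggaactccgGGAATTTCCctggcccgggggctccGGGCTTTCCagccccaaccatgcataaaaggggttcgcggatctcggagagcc
CXCL2 (chr4:74099196-74099335, minus strand): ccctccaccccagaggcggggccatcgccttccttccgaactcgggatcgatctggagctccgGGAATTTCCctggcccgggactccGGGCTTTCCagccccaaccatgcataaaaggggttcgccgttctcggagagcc
CXCL3 (chr4:74038690-74038829, minus strand): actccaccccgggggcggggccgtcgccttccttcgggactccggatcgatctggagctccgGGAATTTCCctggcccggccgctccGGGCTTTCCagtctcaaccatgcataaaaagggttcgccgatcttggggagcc
CXCL8 (chr4:73740429-73740568, plus strand): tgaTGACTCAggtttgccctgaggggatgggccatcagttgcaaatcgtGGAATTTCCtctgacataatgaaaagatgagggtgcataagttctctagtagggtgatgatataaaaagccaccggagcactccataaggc

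Aligned over these bases, the CXCL1 promoter was 91.5% identical to that of CXCL2 and 90.7% to that of CXCL3, CXCL2 and CXCL3 were 87.9% identical, and CXCL8 was 40.8% to 44.2% identical to the 3. The windows of CXCL1, CXCL2 and CXCL3 each hold 2 core matches, and the upstream match reads GGAATTTCC, at positions -78 to -70 from the start in CXCL1 and CXCL3 and -77 to -69 in CXCL2. Their other match reads GGGCTTTCC and lies at -53 to -45. CXCL8 has 1 core match, GGAATTTCC at -91 to -83, and the AP-1 match TGACTCA at -137 to -131. Searched on both strands in windows from 250 bases before to 50 bases after the start, the core occurs in 6.26% of 35116 promoters and TGANTCA in 7.71%. A match describes letters and shows no binding. Of the 10 genes, 7 have a promoter in the table, and CCL2, CCL5 and LIF are named only.

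CXCL8 (probe set 8095680) was at 8.02, 7.90 and 7.86 in control, 7.68, 7.52 and 7.24 in shHMGA2, 10.17 and 10.17 in Tet1, and 9.55 and 9.35 in HOXA9. No groups overlapped, with Tet1 highest, then HOXA9, control and shHMGA2. CXCL8 RNA was 4.73-fold higher in Tet1 than in control (limma log2 fold change 2.24 with 95% limits of 2.00 to 2.49, SE 0.11, adjusted p = 2.14e-08) and 2.88-fold higher in HOXA9 (1.52, SE 0.11, 95% confidence interval 1.28 to 1.77, adjusted p = 3.13e-07). Genes of its level in control had a median change of 0.47 and 0.43. Under the other scalings CXCL8 stayed at least 1.78 higher in Tet1 and 1.07 higher in HOXA9. In shHMGA2 CXCL8 was 1.36-fold lower (limma log2 fold change -0.45 with 95% limits of -0.66 to -0.23, SE 0.10, adjusted p = 0.00638). The shHMGA2 array with the lowest CXCL8 value, 7.24, was replicate 3, which also had the highest mean of the kidney cell list, 7.63 against 7.42 and 7.51 in the others. Over shHMGA2 replicates 1, 2 and 3 this list mean rose at each step, as did CDKN2A (9.64, 9.79 and 10.22), while CXCL8 and IL6 fell at each step. CXCL8 also fell from replicate 1 to replicate 3 in control. LIF was lowest on shHMGA2 replicate 3 but CCL2 on replicate 2. How these values are related over 3 arrays was not tested. Without shHMGA2 replicate 3 the CXCL8 change was -0.32 (adjusted p = 0.017).

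CXCL3 (probe set 8100984) followed CXCL8 upward in Tet1 and HOXA9 but was level in shHMGA2. It was at 5.70, 5.64 and 5.60 in control, 5.51, 5.53 and 5.63 in shHMGA2, 6.75 and 6.63 in Tet1, and 6.68 and 6.65 in HOXA9. Tet1 and HOXA9 overlapped and lay above control and shHMGA2, which also overlapped. The differences from control were 1.04 in Tet1 (SE 0.07, limma adjusted p = 1.01e-07) and 1.02 in HOXA9 (SE 0.07, adjusted p = 1.42e-07), above the upper quartiles of 0.74 and 0.70 among genes of the same control level. They were 0.53 and 0.51 after 1 quantile normalization, still called. Its control mean of 5.65 lies below 6.26 (30% of all probe sets have a lower mean), so it is not known to be above background there. The fold can understate the change for that reason. It can also overstate it, since genes of this control level had median changes of 0.47 in Tet1 and 0.43 in HOXA9. The shHMGA2 difference of -0.09 did not pass (95% confidence interval -0.22 to 0.04, adjusted p = 0.328).

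CXCL1 (probe set 8095697) varied within control and shHMGA2 as much as between groups, and fell from replicate 1 to replicate 3 in both. The values were 8.09, 7.84 and 7.43 in control, 8.05, 7.77 and 7.48 in shHMGA2, 8.24 and 8.22 in Tet1, and 8.13 and 7.96 in HOXA9. The difference between shHMGA2 and control was -0.01 (limma 95% limits -0.36 to 0.33, adjusted p = 0.963). In Tet1 CXCL1 was 0.45 higher (adjusted p = 0.0357), where genes of its control level had a median change of 0.47. The call was lost after 1 quantile normalization (0.12, adjusted p = 0.537) and with equal array medians (-0.02, adjusted p = 0.933), and also without control replicate 2 (0.48), control replicate 3 (0.27), Tet1 replicate 1 (0.44) or Tet1 replicate 2 (0.46). In HOXA9 the difference of 0.27 did not pass (adjusted p = 0.189).

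CXCL2 (probe set 8100994) gave a like picture. It was at 6.86, 6.68 and 6.47 in control, 6.77, 6.65 and 6.69 in shHMGA2, 7.22 and 7.21 in Tet1, and 6.89 and 7.01 in HOXA9. Control and shHMGA2 overlapped (difference 0.03, limma 95% limits -0.16 to 0.22, adjusted p = 0.833). The rises of 0.55 in Tet1 (adjusted p = 2.55e-04) and 0.28 in HOXA9 (adjusted p = 0.0186) were below the median change of genes of the same control level (0.63 and 0.59). After 1 quantile normalization they became -0.01 and -0.28, the latter called lower, and with equal array medians 0.08 and -0.17. The HOXA9 call was lost without control replicate 3 (0.18) or HOXA9 replicate 2 (0.22). CXCL1, CXCL2 and CXCL3 are close copies, so the values of each can hold signal from the others. The probe sequences were not used here.

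**Figure D2:**
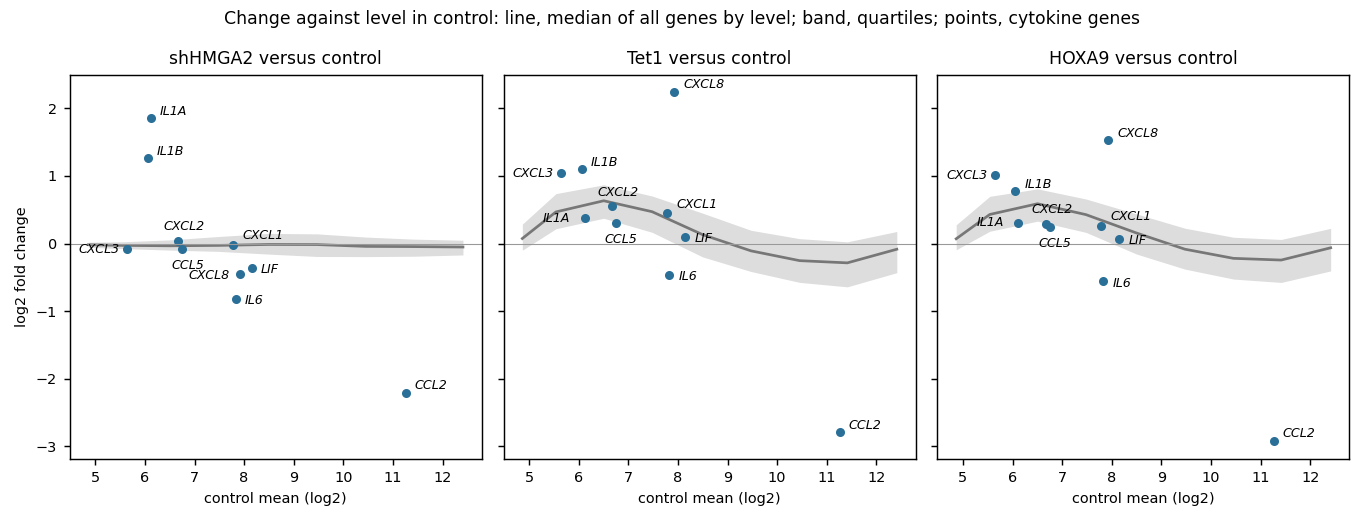
Log2 fold change of the 10 genes (points) against their mean log2 level in control, with the median (line) and quartiles (band) of all genes of the same level, for shHMGA2, Tet1 and HOXA9 against control. The medians lie near 0 in shHMGA2 and reach 0.63 in Tet1 at levels of 6 to 7, where CXCL2 and CCL5 lie within or under the band, while CXCL8, CXCL3, IL6 and CCL2 lie outside it.

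IL1A and IL1B, the paired interleukin-1 genes, moved opposite to the other called genes in shHMGA2. IL1A, which acts within cells and on their surface, was read by probe set 8054712. Its values were 5.99, 6.27 and 6.09 in control, 8.30, 7.43 and 8.18 in shHMGA2, 6.51 and 6.48 in Tet1, and 6.40 and 6.45 in HOXA9. All 3 shHMGA2 arrays were above every other array. IL1A RNA was 3.61-fold higher in shHMGA2 than in control (limma log2 fold change 1.85 with 95% limits of 1.47 to 2.23, SE 0.17, adjusted p = 1.58e-05). In Tet1 and HOXA9 it was 0.38 and 0.31 higher than control, which did not pass (adjusted p = 0.0936 and 0.166) but was called without shHMGA2 replicate 2 (adjusted p = 0.00188 and 0.00686) and was negative under both other scalings. IL1A thus had 1 group with a called change, but the test of shHMGA2 against Tet1 or HOXA9 was not made.

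IL1B, which is cleaved by caspase-1 before it acts (probe set 8054722), was at 6.35, 5.62 and 6.19 in control, 7.33, 7.06 and 7.57 in shHMGA2, 7.20 and 7.10 in Tet1, and 6.88 and 6.77 in HOXA9. Every array of the other groups was above every control array, and shHMGA2 and Tet1 overlapped. IL1B RNA was 2.40-fold higher in shHMGA2 (limma log2 fold change 1.26 with 95% limits of 0.90 to 1.62, SE 0.17, adjusted p = 1.92e-04). The rise was 1.10 in Tet1 (SE 0.18, adjusted p = 1.69e-04) and 0.77 in HOXA9 (SE 0.18, adjusted p = 0.00234), where genes of its control level had upper quartiles of 0.87 and 0.81. The Tet1 call held under both other scalings (0.55 and 0.63). The HOXA9 call did not (0.23, adjusted p = 0.309, and 0.32, adjusted p = 0.130). IL1A and IL1B had control means of 6.12 and 6.06, below 6.26, so their folds can understate the change. In Tet1 and HOXA9 the folds can also overstate it, since genes of their control level had median changes of 0.63 and 0.59.

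Beside the IL1A and IL1B rises stand the other genes that rose in the shHMGA2 arrays. The mean of the kidney cell list was 7.42, 7.51 and 7.63 in shHMGA2 replicates 1, 2 and 3, while IL1A was highest in replicate 1 and IL1B in replicate 3. Of 17 measured markers of leukocytes, cells that make interleukin-1, 0 were higher and 2 lower in shHMGA2, beside 13.6% and 12.6% of all genes. Their summed level was 12.10 to 12.21 in control and 11.72 to 11.86 in shHMGA2 on the log2 scale. In Tet1 and HOXA9, 14 of these 17 markers were called higher and 1 lower. Of all genes 53.9% and 54% were called higher there and 23.2% and 21.6% lower. The summed levels of the 17 markers were 12.75 to 12.77 and 12.62 to 12.65. After 1 quantile normalization 8 of the 17 were higher and 5 (Tet1) or 6 (HOXA9) lower. Of all 18417 genes 6001 were then higher and 6135 lower in Tet1, and 5478 and 6267 in HOXA9. With equal array medians 4 and 3 of the 17 were higher and 4 lower in each. Of all genes 4037 were then higher and 9472 lower in Tet1, and 3730 and 9406 in HOXA9. Of 11 fibroblast and endothelial markers 9 were higher and 1 lower in each of Tet1 and HOXA9 (medians 0.91 and 0.66), 7 and 1 after 1 quantile normalization and 6 and 2 with equal array medians. Their summed level was 10.09 to 10.13 in control, 11.06 on both Tet1 arrays and 10.71 to 10.79 in HOXA9, and in shHMGA2 0 were higher and 2 lower. The 2 of the 11 that did not share the rise in Tet1 were the endothelial marker KDR (-0.39) and the fibroblast marker LUM (4.95 in control and 4.97 in Tet1). The endothelial marker PECAM1 (1.26) was among the 9 that did. The part of other cells in these results was not tested. RefSeq lists 2 starts of IL1A in this table, and the 140 bases before the upstream one are shown because IL1A had the largest rise of the set in shHMGA2, with capitals at the match to TGANTCA at -12 to -6 from the start.
IL1A (chr2:112784494-112784633, minus strand): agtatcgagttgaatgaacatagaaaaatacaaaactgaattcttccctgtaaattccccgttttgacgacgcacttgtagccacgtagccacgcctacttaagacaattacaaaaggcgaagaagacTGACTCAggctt

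This IL1A window holds no NF-kB core, and a further TGANTCA match, TGAGTCA, lies at positions 39 to 45 after this start. Counted from the other IL1A start, the same matches lie at -105 to -99 and -55 to -49. The IL1B window (250 bases before to 50 after the start) holds neither motif.

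IL6 and LIF, the cytokines that signal through gp130, were both lower in shHMGA2. IL6 (probe set 8131803) was at 7.96, 7.68 and 7.84 in control, 7.33, 7.12 and 6.59 in shHMGA2, 7.31 and 7.43 in Tet1, and 7.23 and 7.31 in HOXA9. Every control array was above every other array, and the other 3 groups overlapped. IL6 RNA was 1.76-fold lower in shHMGA2 (limma log2 fold change -0.81 with 95% limits of -1.14 to -0.49, SE 0.15, adjusted p = 0.00173). The lowest value, 6.59, came from the shHMGA2 array with the highest mean of the kidney cell list, and without that array the change was -0.60 (adjusted p = 9.94e-04). In Tet1 and HOXA9 IL6 was lower by the test as well (-0.46, SE 0.17, adjusted p = 0.0229, and -0.56, SE 0.17, adjusted p = 0.0086), where genes of its control level had a median change of 0.47 and 0.43. Under the other scalings the fall was larger, -0.92 and -0.93 in Tet1 and -1.02 and -1.01 in HOXA9. The Tet1 call was lost without control replicate 1 (-0.40), Tet1 replicate 1 (-0.40) or Tet1 replicate 2 (-0.52), and the HOXA9 call without HOXA9 replicate 1 (-0.52). The IL6 promoter, shown as that of a textbook NF-kB target that fell where CXCL8 rose, has 1 NF-kB core match in capitals, GGATTTTCC at -72 to -64 from the start.
IL6 (chr7:22727060-22727199, plus strand): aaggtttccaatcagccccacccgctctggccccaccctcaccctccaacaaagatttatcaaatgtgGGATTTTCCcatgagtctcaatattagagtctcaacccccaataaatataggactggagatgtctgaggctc

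LIF, a cytokine named for its effect on leukaemia cells (probe set 8075310), was at 8.13, 8.16 and 8.16 in control, 7.77, 7.99 and 7.63 in shHMGA2, 8.27 and 8.24 in Tet1, and 8.13 and 8.31 in HOXA9. All shHMGA2 arrays lay below all others, and control, Tet1 and HOXA9 formed 1 range. LIF RNA was 1.28-fold lower in shHMGA2 (limma log2 fold change -0.36 with 95% limits of -0.54 to -0.17, SE 0.08, adjusted p = 0.00865). The differences of 0.10 in Tet1 and 0.07 in HOXA9 did not pass (adjusted p = 0.341 and 0.497). With equal array medians LIF was called lower in both (-0.36 and -0.38), so it had no direction there that held over the scalings.

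**Figure D3:**
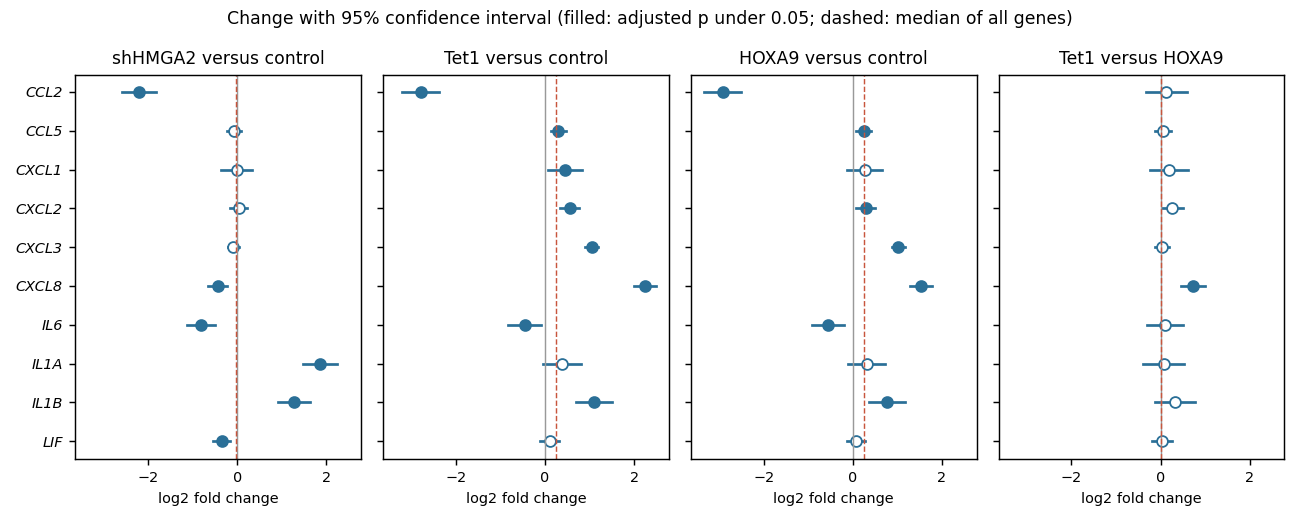
Log2 fold change of each gene with its 95% confidence interval in the 4 comparisons, filled where the limma adjusted p is under 0.05, with the median change of all genes as a dashed line. In shHMGA2 CCL2 (-2.21), IL6, CXCL8 and LIF lie to the left and IL1A (1.85) and IL1B (1.26) to the right, and in Tet1 against HOXA9 only CXCL8 (0.72) is filled.

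**Figure D4:**
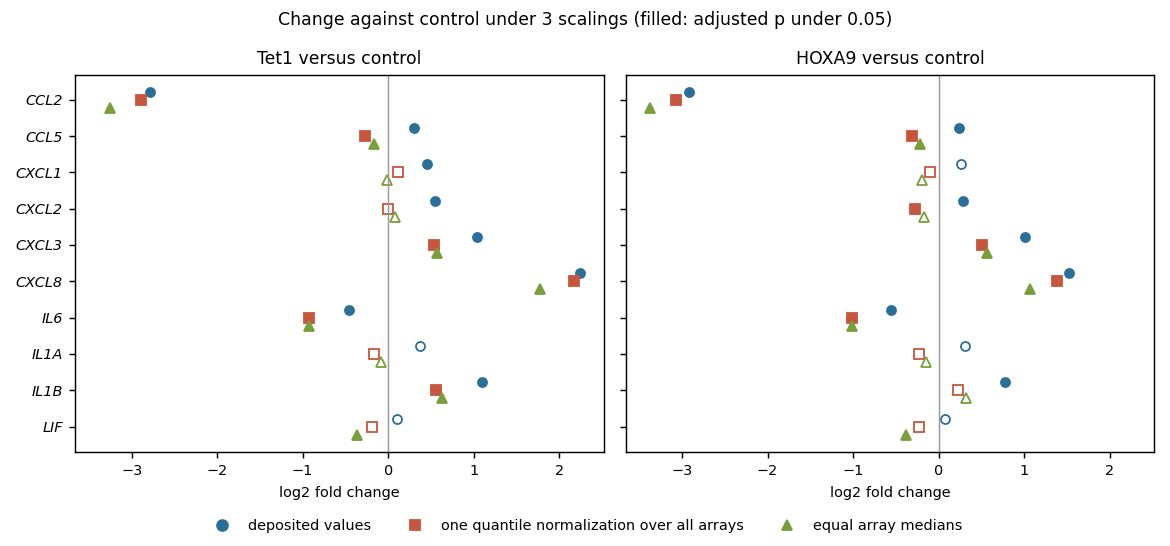
Log2 fold change of each gene in Tet1 and HOXA9 against control with the deposited values (circles), with 1 quantile normalization over all arrays (squares) and with equal array medians (triangles), filled where the limma adjusted p is under 0.05. CCL2 and IL6 stay left of 0 and CXCL8 and CXCL3 right of 0 and filled under all 3, whereas CCL5 changes from 0.30 to -0.27 and from 0.24 to -0.32.

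The arrays labelled Tet1 and HOXA9 were of 1 set and were compared with each other. Of the 10 genes, CXCL8 alone was called, 1.64-fold higher in Tet1 (limma log2 fold change 0.72 with 95% limits of 0.45 to 0.99, SE 0.12, adjusted p = 0.0301). Its means were 10.17 ± 0.003 (SD, n = 2) in Tet1 and 9.45 ± 0.15 (SD, n = 2) in HOXA9, and the groups did not overlap. In this comparison 0.434% of all genes were called (0.114% higher and 0.32% lower), and CXCL8 ranked 7 by size among the 21 called higher. The call was lost when any of these 4 arrays was left out, with values of 0.62 to 0.82 and adjusted p from 0.0547 to 0.354, and also without shHMGA2 replicate 2, which shares in the estimate of the spread (adjusted p = 0.0527). It was kept without each of the other 5 arrays. In the same comparison 2 of 11 fibroblast and endothelial markers were called higher in Tet1, the collagen genes COL1A1 (0.56) and COL1A2 (0.46). For the other 9 genes the adjusted p was 0.465 or higher. The largest of these differences were 0.32 for IL1B (95% confidence interval -0.12 to 0.77) and 0.26 for CXCL2 (0.03 to 0.50).

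The receptors of these signals were next examined in shHMGA2, where 4 of 12 measured were lower and 0 higher. Over all genes 12.6% were lower and 13.6% higher in shHMGA2. These are the shares beside which this count and the shHMGA2 list counts below stand. IL1RAP, the accessory chain of the interleukin-1 receptor, changed by -0.49 (SE 0.09, limma adjusted p = 0.00204) and IL1R1, its binding chain, by -0.29 (adjusted p = 0.0289). LIFR changed by -0.46 (adjusted p = 0.00318) and IL6ST, which encodes gp130, by -0.30 (adjusted p = 0.00594). The IL1R1 call was lost in 4 of the leave-one-out fits. The median of the list was -0.02, near that of all genes.

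Of 31 other chemokines measured in shHMGA2, CXCL16, a membrane-bound chemokine, was higher (0.62, SE 0.07, limma adjusted p = 4.63e-05) and CCL28, a mucosal chemokine, was lower (-0.86, SE 0.10, adjusted p = 1.2e-04), and 29 did not pass (median -0.05). Of 26 other cytokines 9 were lower and 0 higher (median -0.08). IL18, a relative of IL1B, changed by -1.01 (adjusted p = 0.00137), TNFSF10, the death ligand TRAIL, by -0.79 (adjusted p = 0.00983), CSF1, the macrophage growth factor, by -0.78 (adjusted p = 0.00184) and IL24 by -0.62 (adjusted p = 0.0232, lost in 2 leave-one-out fits). IL18 therefore fell while IL1A and IL1B rose in the same arrays.

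Among 28 measured NF-kB feedback genes and targets, 10 were lower in shHMGA2 and 0 higher, and the median was -0.20 against -0.03 over all genes. PTX3, a pattern-recognition protein, changed by -0.88 (SE 0.13, limma adjusted p = 4.87e-04), IRF1, a transcription factor, by -0.50 (adjusted p = 0.00238), IER3 by -0.47 (adjusted p = 0.0182, lost in 3 leave-one-out fits) and NFKBIA, the inhibitor that holds NF-kB in the cytoplasm, by -0.45 (adjusted p = 0.00186). Of 19 NF-kB pathway components 3 were higher and 5 lower (median -0.05). REL, an NF-kB subunit, rose by 0.39 (adjusted p = 0.00386) and the kinase MAP3K7 by 0.26 (adjusted p = 0.0132, lost in 1 leave-one-out fit), while IRAK3 changed by -0.51, NFKB2 by -0.39 (lost in 2 leave-one-out fits), MYD88 by -0.38 and TNFRSF1A by -0.32. TIRAP was 0.23 higher, a call lost in 3 leave-one-out fits and after 1 quantile normalization (0.18).

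**Figure D5:**
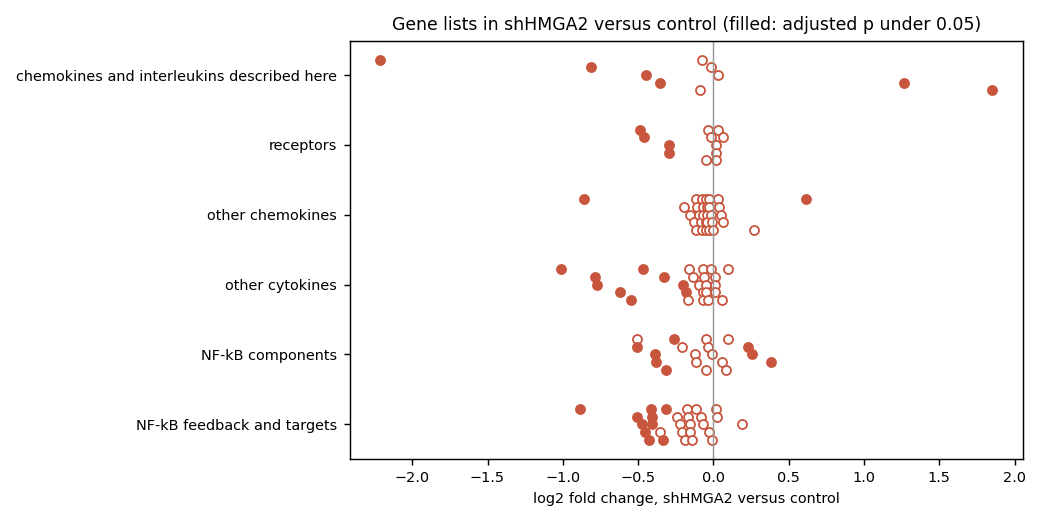
Log2 fold change in shHMGA2 against control of the 10 genes and of the measured genes of 5 other lists, 1 point per gene, filled where the limma adjusted p is under 0.05. The filled points of the receptors, other cytokines and NF-kB targets all lie left of 0, with medians of -0.02, -0.08 and -0.20, and IL1A (1.85) and IL1B (1.26) lie furthest right.

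Of 20 gp130 and STAT3 genes 7 were lower in shHMGA2 and 1 higher (median -0.16), with OSMR, the oncostatin M receptor, at -0.49 (SE 0.07, limma adjusted p = 3.66e-04), the repressor BCL6 at -0.41 and the transcription factor CEBPB at -0.38. LIFR and IL6ST are in this list and in that of the receptors, so their falls are counted in both. CNTFR was 0.23 higher, a call lost in 5 leave-one-out fits and under both other scalings (0.18 and 0.20). Of 13 genes for interleukin-1 processing 7 were lower and 0 higher (median -0.26), among them the pore protein GSDME (-0.66, adjusted p = 1.75e-04), the protease subunit CAPN2 (-0.48), CASP4 (-0.44, lost in 4 leave-one-out fits) and the DNA sensor AIM2 (-0.44). Of 13 factors that control decay of cytokine mRNAs 3 were higher and 1 lower (median 0.01). The higher ones were DCP1A (0.32), RC3H1 (0.27) and CNOT1 (0.25), and ZFP36, which targets AU-rich elements in cytokine mRNAs, was lower (-0.47, adjusted p = 6.68e-04). In the same arrays 7 of 12 genes that mark basal breast lines were also lower and 1 higher, with a median of -0.26.

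In Tet1 and HOXA9 most of the same lists had counts that moved with the scaling of the arrays. With the deposited values 53.9% and 54% of all genes were higher in Tet1 and HOXA9, and 23.2% and 21.6% lower. The list counts with these values, here and below, stand beside these shares. After 1 quantile normalization 6001 of all 18417 genes were higher and 6135 lower in Tet1, and 5478 and 6267 in HOXA9. With equal array medians 4037 were higher and 9472 lower in Tet1, and 3730 and 9406 in HOXA9. List counts under these 2 scalings, here and below, stand beside these numbers. Of 31 other chemokines 23 were higher and 2 lower than control in each (medians 0.53 and 0.47), and after 1 quantile normalization 12 were higher in each and 5 and 7 lower. With equal array medians 14 were higher and 10 lower in Tet1 and 12 higher and 13 lower in HOXA9. The higher calls of the list thus became fewer under both scalings, as did those of all genes. Whether the list moved beyond its arrays was not tested. CCL26, an eosinophil chemokine, was 2.62 higher in Tet1 and 2.15 higher in HOXA9 (limma adjusted p = 5.33e-09 and 2.4e-08) and stayed called under both other scalings (1.69 or more). CXCL16 was lower (-0.78 and -0.67) and CXCL10, an interferon-induced chemokine, was lower (-0.36 and -0.45) under all 3 scalings. The receptors had 10 higher and 1 lower in Tet1 and 11 higher and 0 lower in HOXA9 (medians 0.71 and 0.61), with CCR2, the receptor of CCL2, 0.98 and 0.88 higher from a control mean of 5.26, below 6.26. With 1 quantile normalization 7 and 8 receptors were higher and 2 lower in each, and with equal array medians 6 were higher in each and 3 and 2 lower.

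Other cytokines had 18 higher and 5 lower than control in each of Tet1 and HOXA9 (14 and 7, and 12 and 8, after 1 quantile normalization, and 11 and 8, and 10 and 9, with equal array medians), with medians of 0.57 and 0.49. TNFSF15, a cytokine of the TNF family, was 3.16 higher in Tet1 and 1.91 higher in HOXA9, TNFSF10 2.15 and 2.40 higher, and TNF 1.34 and 1.23 higher, all called under the 3 scalings. IL24 was lower (-1.30 and -1.43), as was CSF1 (-0.49 and -0.95), under all 3. Between Tet1 and HOXA9, TNFSF15 alone of these 26 was called, 1.25 higher in Tet1 (SE 0.12, limma adjusted p = 0.00101).

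NF-kB targets had 16 higher and 2 lower in each of Tet1 and HOXA9 (medians 0.39 and 0.35), and after 1 quantile normalization 11 higher in each and 5 and 6 lower. PTGS2, the inducible cyclooxygenase, was 1.90 and 1.74 higher, BCL2A1, a survival protein, 1.71 and 2.15, and ICAM1, an adhesion molecule, 1.54 and 1.66, all called under the 3 scalings. Of the 19 components 12 were lower in Tet1 and 10 in HOXA9 and 4 higher in each (medians -0.28 and -0.23). These are bright genes with a list mean of 9.25 to 9.29 in control, and all genes of 9 to 10 had medians of -0.11 and -0.08 and those of 10 to 11 had -0.25 and -0.22. NFKB1 changed by -0.67 and -0.66 and RELA by -0.65 and -0.61 (limma adjusted p between 8.95e-06 and 2.07e-05), and both were lower under all 3 scalings, while IRAK2, a kinase of the interleukin-1 receptor, was 0.83 and 0.87 higher under all 3. With equal array medians the targets had 8 higher and 12 lower in Tet1 and 9 higher and 11 lower in HOXA9. Their higher calls became fewer under both scalings, as did those of all genes. Whether the targets as a whole moved beyond their arrays was not tested.

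For signalling through gp130, 11 of 20 genes were higher and 4 lower in Tet1, and 11 higher and 3 lower in HOXA9 (medians 0.25 and 0.28). JUNB, an AP-1 subunit, was 1.48 and 1.12 higher, and STAT3 was lower (-0.75 and -0.74) under all 3 scalings, where genes of its control level had medians of -0.29 and -0.24. After 1 quantile normalization 8 of this list were higher and 5 lower in Tet1, and 9 higher and 6 lower in HOXA9. With equal array medians 5 and 3 were higher and 11 and 9 lower. Of the interleukin-1 processing genes 6 were higher and 1 lower in each group (medians 0.13 and 0.11). After 1 quantile normalization 4 were higher and 4 lower, and with equal array medians 3 were higher and 8 lower. These counts moved with the scaling, as did those of all genes. AIM2 (1.48 and 1.64) and CASP1, which cleaves the IL1B protein (1.28 and 1.14), were higher under all 3 scalings. Of the mRNA decay factors 7 were lower and 3 higher in Tet1 and 6 lower and 2 higher in HOXA9 (medians -0.32 and -0.10), with ELAVL1, which stabilises cytokine mRNAs, at -1.15 and -1.02. Their list mean in control was 10.47 to 10.54, a level at which all genes had the medians of -0.25 and -0.22 given above.

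Genes most like each called gene were found by the root mean square distance between log2 profiles over the 10 arrays, each centred on its own mean. For CCL2 the nearest was ABCG2, a drug efflux pump (0.34), then SLAMF7 (0.41) and RFPL4A (0.55), where the spread of CCL2 itself was 1.23. For CXCL8 they were SPARC, a matrix protein (0.20), CRYAB, a small heat shock protein (0.23), and CCL26 (0.23), and the CXCL8 spread was 1.08. For IL1A they were RNF157 (0.19), PRKD1 (0.20) and OR51B4 (0.21), against a spread of 0.80. For IL1B they were DLX2 (0.19), MAGED1 (0.19) and SLC7A8 (0.21), against 0.56. For IL6 they were MLKL (0.11), HEG1 (0.11) and SH3RF2 (0.11), against 0.37, and for LIF PPP1R13L (0.05), EVI5L (0.05) and RAB8B (0.06), against 0.21. None of the nearest genes of CXCL8 was another CXC chemokine of the set, and IL1A and IL1B were not among each other's nearest 3. The profiles were not scaled by their spread, so genes that change together by unlike amounts lie far apart. These absences therefore do not speak on shared regulation.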

How the data were processed

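The deposited table holds 12 columns of log2 values for 33297 probe sets. Per the submitters' processing notes, the authors used RMA and R 2.11. The sources used here do not say whether the arrays were normalized as 1 batch. RMA gives no detection calls. Gene names came from the platform annotation: 19460 probe sets have 1 symbol, 1754 several and 12083 are not listed. Where several probe sets read a gene (769 genes), the brightest on average stood for it, which left 18417 genes.

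limma 3.58.1 (R 4.3.3) fitted group means to 10 arrays, with 6 residual and 5.65 prior degrees of freedom. A call is a two-sided p, adjusted over all 18417 genes by Benjamini-Hochberg, of less than 0.05. The comparisons and the script were tested on simulated data. Alternatives were 1 quantile normalization, equal array medians, a filter at the 30th percentile (6.26), all 12 columns, the mean of probe sets per gene, only the compared groups, a replicate block and each replicate left out. The number of arrays limits the precision.

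The members and lists were chosen with earlier results of these data known. Named from each other list were the called genes with the largest change, at most 4 higher and 4 lower per comparison, and the 3 nearest profiles of each gene called in shHMGA2 or between Tet1 and HOXA9. Of those that qualified, the ones the text turns on are given. Promoters are from RefSeq (GRCh38.p14), searched and aligned in Python 3.11.15 with Biopython 1.88.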

Additional observations from a re-analysis of the deposited data

Results flagged for a closer look

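CXCL8 differed between the responses of Tet1 and HOXA9 against the same control arrays. The change in Tet1 minus that in HOXA9 was 0.72 on the log2 scale (SE 0.12, 95% confidence interval 0.45 to 0.99, limma adjusted p = 0.0301), with both Tet1 arrays at 10.17 and the HOXA9 arrays at 9.55 and 9.35. It stayed called under the other scalings (0.79 with 1 quantile normalization, 0.71 with equal array medians) and not in any of the 4 fits that left out a Tet1 or HOXA9 array, nor without shHMGA2 replicate 2 (adjusted p = 0.0527).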

How the results depend on the processing

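In shHMGA2 the 6 calls of the 10 genes held in 13 alternatives and in the 4 fits without a Tet1 or HOXA9 array, and the values that changed sign were near 0: CXCL1 became 0.14, 0.013 and 0.13 without control replicate 1, control replicate 2 and shHMGA2 replicate 3, and CXCL2 -0.067 and -0.0016 without control replicate 3 and shHMGA2 replicate 1. Against control the scaling decided most small changes in Tet1 and HOXA9, where it moved the median gene from 0.25 and 0.24 to -0.0006 and -0.02 (1 quantile normalization) or -0.22 and -0.21 (equal medians), and the share of calls that were higher from 69.9% and 71.4% to 49.4% and 46.6% or 29.9% and 28.4%. Between Tet1 and HOXA9 that share was 26.2%, 37.9% and 26.9%. With equal medians 4037 of all 18417 genes were called higher and 9472 lower in Tet1, and 3730 and 9406 in HOXA9. With 1 quantile normalization 6001 were called higher and 6135 lower in Tet1, and 5478 and 6267 in HOXA9. Of the 10 genes, 1 quantile normalization called 3 higher and 3 lower in Tet1, and 2 higher and 4 lower in HOXA9. Reversed values were -0.27 (CCL5), -0.0055 (CXCL2), -0.16 (IL1A) and -0.19 (LIF) in Tet1, and -0.32 (CCL5), -0.096 (CXCL1), -0.28 (CXCL2), -0.23 (IL1A) and -0.23 (LIF) in HOXA9. With equal medians 3 and 2 were higher and 4 and 4 lower, and reversed values were -0.17 (CCL5), -0.018 (CXCL1), -0.089 (IL1A) and -0.36 (LIF) in Tet1, and -0.21 (CCL5), -0.19 (CXCL1), -0.17 (CXCL2), -0.15 (IL1A) and -0.38 (LIF) in HOXA9. Leaving out 1 array of the compared groups gave 1 to 2 of the 10 genes lower in Tet1 and in HOXA9 and put LIF in HOXA9 between -0.017 and 0.16. CXCL1 in HOXA9 was called (0.42) without control replicate 1. Between Tet1 and HOXA9, 80 genes were called, 145 with 1 quantile normalization, 1112 with all 12 columns, whose averaged columns understate the spread by construction, 143 with these 2 groups fitted alone, 11 to 72 with 1 Tet1 or HOXA9 array left out (11 and 18 without Tet1 replicates 1 and 2, 17 without HOXA9 replicate 2) and 58 to 112 with 1 control or shHMGA2 array left out. At an unadjusted p under 0.05 there were 1687. CXCL8 was the member called higher, and 0 were called in the 4 fits without a Tet1 or HOXA9 array and in that without shHMGA2 replicate 2, while CXCL3 ranged from -0.031 to 0.085, LIF from -0.061 to 0.12 and CCL5 from -0.048 to 0.16. IL1A was called in Tet1 with all 12 columns (0.38), and in Tet1 and HOXA9 with the compared groups fitted alone or without shHMGA2 replicate 2 (0.38 and 0.31). The filter on dim genes removed CXCL3 and left 9. The replicate block called 4885, 14093, 13805 and 69 genes in the 4 comparisons and left the counts of the 10 genes as they were. Same-numbered control and shHMGA2 samples correlated in their deviations at 0.164, 0.140 and 0.00165. Such weak values cannot decide whether these samples were paired. The cause of these changes was not tested, and without detection calls the signal over background of dim genes is unknown.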
